A study of Mus musculus with 16 samples.

Results

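The enzymes that turn squalene epoxide into cholesterol were followed in mouse liver through 9 genes, taken in pathway order: Lss, Cyp51, Tm7sf2, Msmo1, Nsdhl, Hsd17b7, Ebp, Sc5d and Dhcr7. They were picked by gene symbol, and all 9 were among the 12617 genes tested. Messenger RNA came from livers in 2 groups, 8 labelled control CRISPR and 8 labelled Cyp7a1 CRISPR, all from mice on a Western diet for 8 weeks. Guide RNAs direct the cutting of a chosen gene in CRISPR editing, and the chosen gene here, Cyp7a1, makes the enzyme that commits cholesterol to bile acids by the classical route. The labels used here state no strain, sex, age or guide, nor how the editing reagents reached the liver or whether livers were pooled.

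Cholesterol is built in the endoplasmic reticulum. Lss folds the open chain of squalene epoxide into lanosterol, a sterol with surplus methyl groups, and the later enzymes strip those groups, shift a double bond in the ring system and reduce what is left. Most genes of this route are known targets of SREBP2, the transcription factor encoded by Srebf2, which is held back by the Scap and Insig proteins while membrane sterol is plentiful and released when it falls.

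The targeted transcript did not separate the groups. Cyp7a1 had a lowest, median and highest normalized count of 2148, 3281 and 5642 in the controls and 3069, 4892 and 5873 in the Cyp7a1 group. Its log2 fold change was 0.43 ± 0.20 (SE, limma adjusted p = 0.227), so the group is called Cyp7a1-labelled here and directions rest on the labels. A normalized count is the authors' read count scaled for library depth, and 1 read was worth 0.769 to 1.54 of these units in libraries of 13.8 to 27.4 M reads (M, mega). The fewest reads behind any value of the 9 genes were 285, for Nsdhl. All 7 hepatocyte markers looked for were present, and of 30 markers of other liver and blood cell types in the table, 0 were higher and 0 lower (limma adjusted p under 0.05; 1 higher and 1 lower at an unadjusted p under 0.05). The labels do not tie each library to its own animal, and the p-values therefore describe the scatter among these libraries, which may be technical.

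Because 8 of the 9 genes varied together from liver to liver and Ebp did not, upstream DNA is shown for 4 of them. These are the 3 that rose most, Msmo1, Cyp51 and Nsdhl, and Ebp. Each line gives the 200 bases before the RefSeq start site on GRCm38.p6, the mm10 assembly, 5′ to 3′ on the strand of the gene. Upstream refers to that start site only. By the GENCODE gene positions given below, the Msmo1 stretch lies inside the gene, as does the part of the Cyp51 stretch nearest its start site. The marked CCAAT boxes of both genes lie there too. The bases after the Nsdhl start site were not found in a GENCODE transcript. Capitals mark the CCAAT box, CCAAT or its reverse complement ATTGG, the core of sites for the factor NF-Y, which is known to act beside SREBP.
Msmo1, chr8:64733579-64733778, minus strand: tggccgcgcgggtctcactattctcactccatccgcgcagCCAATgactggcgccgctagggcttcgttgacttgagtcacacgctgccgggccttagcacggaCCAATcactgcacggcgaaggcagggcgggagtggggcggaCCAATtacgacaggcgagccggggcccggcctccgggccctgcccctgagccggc
Cyp51, chr5:4104698-4104897, minus strand: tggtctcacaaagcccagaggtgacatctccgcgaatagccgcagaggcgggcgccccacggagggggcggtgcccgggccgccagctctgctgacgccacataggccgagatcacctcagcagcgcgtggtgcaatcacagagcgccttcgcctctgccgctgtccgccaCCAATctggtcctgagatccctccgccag
Nsdhl, chrX:72918321-72918520, plus strand: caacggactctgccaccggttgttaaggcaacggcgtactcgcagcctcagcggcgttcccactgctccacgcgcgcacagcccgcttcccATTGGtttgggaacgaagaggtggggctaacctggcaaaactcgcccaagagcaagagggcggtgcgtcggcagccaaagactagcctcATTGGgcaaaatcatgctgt
Ebp, chrX:8193513-8193712, minus strand: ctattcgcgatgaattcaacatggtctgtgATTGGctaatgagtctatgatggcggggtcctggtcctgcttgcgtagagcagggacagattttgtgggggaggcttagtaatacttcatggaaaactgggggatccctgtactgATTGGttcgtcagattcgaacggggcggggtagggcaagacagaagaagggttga

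All 9 symbols matched RefSeq, with 11 start sites, 3 of them for Dhcr7. Windows from 250 bases before to 50 after each start were searched on both strands for 3 motifs, each counted on its own where matches overlapped. CCAAT was found in 9 of the 11 windows and for all 9 genes, against 37.4% of all 32851 start site windows of that length. That is a share of windows, not of genes, and whether genes expressed in liver differ from it was not tested. GGGCGG, a GC box, was found in 10 of the 11 and for all 9 genes, against 35.7% of all windows. The SREBP pattern TCACNCCAC was in 0 of the 11 and in 1.24% of all windows. Msmo1 had 3 CCAAT boxes, beginning 160, 96 and 55 bases before the start, and Ebp had 2, beginning 170 and 55 bases before it. Ebp holds the CCAAT letters as the other members and 37.4% of all windows do, and any bearing of them on its values was not tested. A match is a description of the sequence, and a missing pattern says only that those letters are not in the window.

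Between the groups, 6 of the 9 genes passed as higher and 0 as lower by limma (adjusted p under 0.05), against 3.07% of all genes higher, 3.05% lower and 6.12% in either direction. At an unadjusted p under 0.05, 9 were higher and 0 lower. The share of all genes at that threshold was not computed, so this count has no background beside it. The 6 were Cyp51, Tm7sf2, Msmo1, Nsdhl, Hsd17b7 and Dhcr7, with rises of 1.69-fold to 3.05-fold, while Lss, Ebp and Sc5d did not pass. The median log2 fold change of the 9 was 0.89, against 0.0034 over all genes. The groups overlapped for each of the 9 genes, while 0.507% of all genes were higher and 0.531% lower without overlap. In bulk tissue, more RNA per cell and more cells of a kind cannot be told apart.

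**Figure D1:**
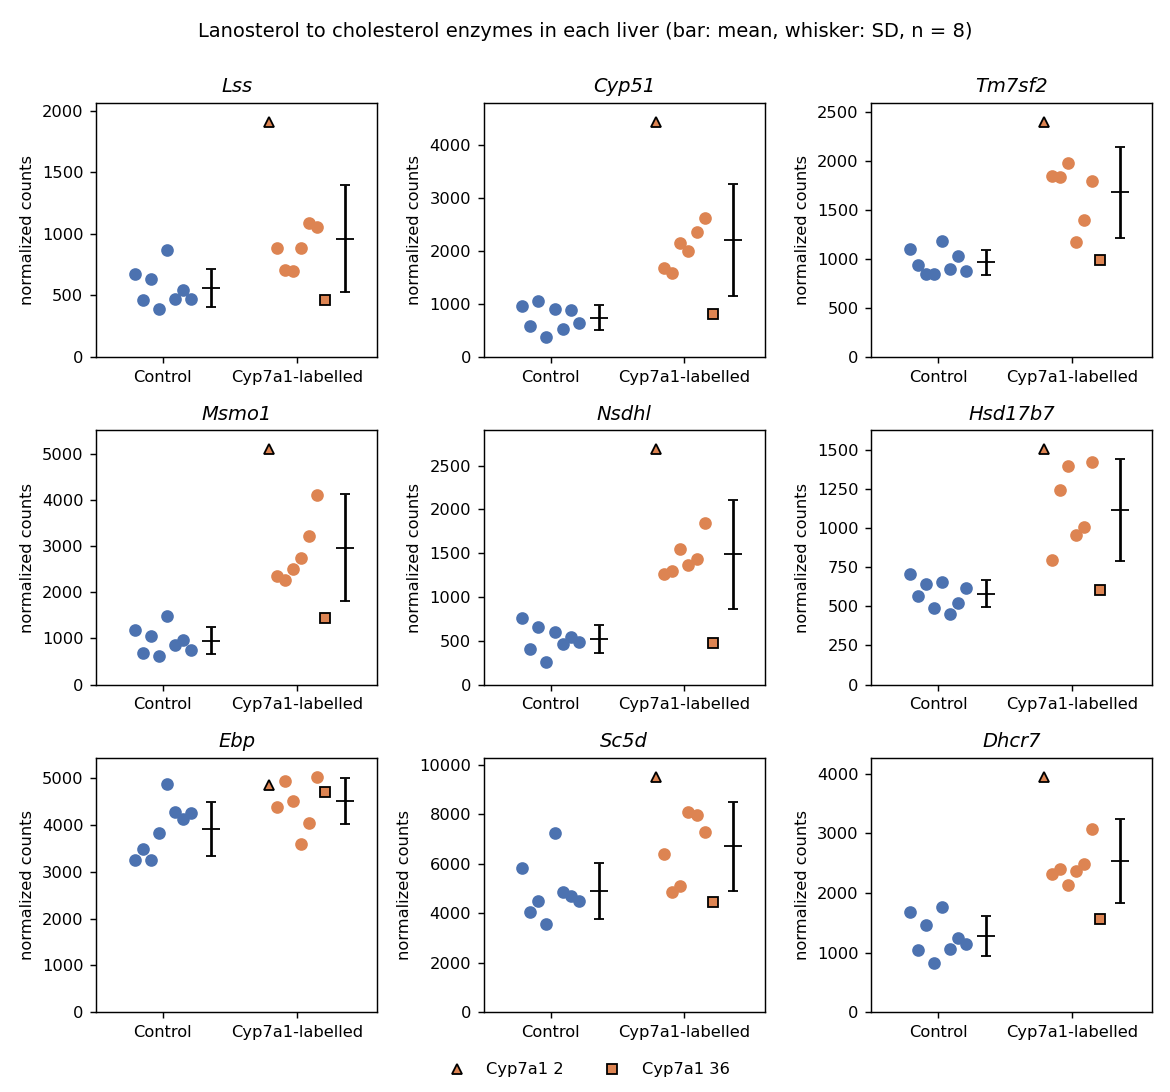
Normalized counts of the 9 enzymes in each liver, with controls in blue, Cyp7a1-labelled livers in orange, and the mean and SD of each group (n = 8) to the right of its points. The triangle is Cyp7a1 2 and the square Cyp7a1 36, the highest and the lowest Cyp7a1-labelled liver for 8 of the 9 genes, and for Ebp both lie among the others.

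Lss, lanosterol synthase (chromosome 10, 76531588 to 76557138, plus strand, mm10), had a lowest, median and highest value of 387, 509 and 866 in controls and 461, 886 and 1913 in the Cyp7a1-labelled livers. Only Cyp7a1 2 exceeded 1100, and 5 of the 8 lay above every control. The log2 fold change was 0.70 ± 0.22 (SE, 95% interval 0.23 to 1.17, adjusted p = 0.0709). The gene passed in 4 of 24 alternatives. These were without Cyp7a1 36 (adjusted p = 0.0221), without Control 20, the highest control (0.0432), without Cyp7a1 2 and Cyp7a1 36 (0.0299), and with array weights (0.0273). It missed in the others, with an adjusted p of up to 0.136 (without Control 16). Its exons share 381 bases with an antisense transcript that is not in the table.

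Cyp51, the cytochrome P450 that removes the first methyl group of lanosterol (chromosome 5, 4081145 to 4104746, minus strand), ran from 384 through a median of 766 to 1050 in controls. In the Cyp7a1-labelled livers it ran from 809 through 2076 to 4441. Of these, 7 were above every control and Cyp7a1 36 alone was inside the control range. It rose 2.83-fold, with a log2 fold change of 1.501 ± 0.272 (adjusted p = 0.00376). Its exons share 166 bases with Akap9 on the other strand, and Akap9 had a log2 fold change of 0.0084 (adjusted p = 0.961).

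Tm7sf2, the reductase that acts on the double bond left by Cyp51 (chromosome 19, 6062821 to 6068373, minus strand), lay between 842 and 1180 in controls, with a median of 919. The Cyp7a1-labelled livers lay between 987 and 2401, with a median of 1819. Here Cyp7a1 24, at 1172, joined Cyp7a1 36 inside the control range. Tm7sf2 rose 1.69-fold (log2 fold change 0.76 ± 0.15, adjusted p = 0.00652). Its exons overlap those of Vps51 on the same strand by 532 bases, so reads may be shared, and Vps51 had a log2 fold change of 0.083 (adjusted p = 0.452). Lbr, the lamin B receptor, whose sterol reductase domain carries out the same reaction, stood at 154 ± 22.6 normalized counts in controls against 170 ± 15.8 (SD, n = 8 each; log2 fold change 0.15, limma adjusted p = 0.389).

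The next 3 enzymes work as a complex that takes the remaining methyl groups off one carbon. Msmo1, the oxygenase of the complex (chromosome 8, 64718139 to 64733792, minus strand), had 622, 912 and 1483 as lowest, median and highest value in controls and 1451, 2621 and 5095 in the Cyp7a1-labelled livers. The groups overlapped by 1 control, Control 20. It rose 3.05-fold, the largest change among the 9 (log2 fold change 1.61 ± 0.22, adjusted p = 0.000403).

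Nsdhl, the decarboxylating dehydrogenase (chromosome X, 72918557 to 72958514, plus strand), had 255, 513 and 762 in controls and 470, 1404 and 2685 in the Cyp7a1-labelled livers. Cyp7a1 36 had the 470, below the control mean of 520, and the next lowest Cyp7a1-labelled liver had 1258. Nsdhl rose 2.73-fold (log2 fold change 1.45 ± 0.27, adjusted p = 0.00488).

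Hsd17b7, the ketosteroid reductase that restores the hydroxyl group (chromosome 1, 169949535 to 169969241, minus strand), ran from 453 through 592 to 706 in controls and from 604 through 1124 to 1503 in the Cyp7a1-labelled livers. It rose less than the other members of the complex, 1.86-fold (log2 fold change 0.89 ± 0.16, adjusted p = 0.00422). Erg28, listed in the table as 0610007P14Rik and the scaffold of the complex in yeast, stood at 946 ± 70.8 normalized counts in controls against 1205 ± 259 (SD, n = 8 each; log2 fold change 0.33, limma adjusted p = 0.0678). It was above every control in 7 of the 8 Cyp7a1-labelled livers, and Cyp7a1 36 had the lowest value of all 16. Erg28 passed without that liver (adjusted p = 0.0178), without it and Cyp7a1 2 (0.0144) and with array weights (0.0382).

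Ebp is the isomerase that shifts the double bond of the sterol ring and a binding site of many drugs (chromosome X, 8185329 to 8193512, minus strand). Its controls ran from 3249 through 3980 to 4881 and its Cyp7a1-labelled livers from 3591 through 4611 to 5032. Only 2 of the 8 were above every control. The log2 fold change was 0.21 ± 0.09 (95% interval 0.02 to 0.39, adjusted p = 0.186). The upper bound of this interval is below the lower bound of the intervals of Cyp51, Tm7sf2, Msmo1, Nsdhl, Hsd17b7 and Dhcr7. Ebp passed in 1 of 24 alternatives, without Control 20 and Cyp7a1 24 (adjusted p = 0.0279), a pair left out after seeing the data. Its adjusted p was up to 0.371 in the others (without Cyp7a1 2 and Cyp7a1 36).

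Sc5d, the desaturase that follows (chromosome 9, 42251595 to 42264256, minus strand), ran from 3549 through 4591 to 7230 in controls and from 4436 through 6831 to 9513 in the Cyp7a1-labelled livers. Control 20 had the 7230, and 4 of the 8 Cyp7a1-labelled livers exceeded it. The log2 fold change was 0.44 ± 0.16 (95% interval 0.095 to 0.78, adjusted p = 0.125). Sc5d passed in 1 of 24 alternatives, with array weights (adjusted p = 0.0444), and its adjusted p was up to 0.225 in the others (without Control 16).

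Dhcr7, the reductase whose loss causes a build-up of dehydrocholesterol (chromosome 7, 143823145 to 143848410, plus strand), ran from 831 through 1202 to 1770 in controls and from 1570 through 2384 to 3948 in the Cyp7a1-labelled livers. Only 2 controls, Control 7 and Control 20, were above the lowest Cyp7a1-labelled liver. Dhcr7 rose 1.97-fold (log2 fold change 0.98 ± 0.17, adjusted p = 0.00271).

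**Figure D2:**
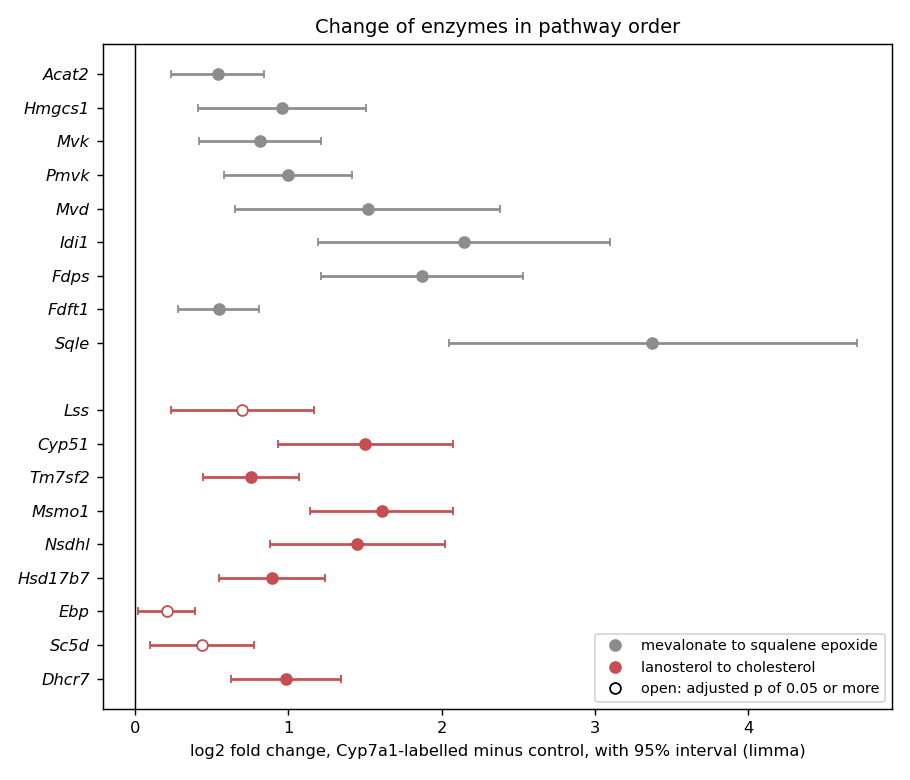
Log2 fold change, Cyp7a1-labelled minus control, with the 95% interval from limma, for the enzymes up to squalene epoxide (grey) and from Lss to Dhcr7 (red), in pathway order from top to bottom. Filled points passed an adjusted p of 0.05. In the later part Msmo1, Cyp51 and Nsdhl stand at 1.45 to 1.61, and Ebp has the shortest interval and the smallest change, 0.21.

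The members were compared within livers, to see whether their ratios differed between the groups. For each of the 36 pairs the log2 ratio of both genes was taken in each liver, and its difference between the groups was tested with exact permutation of the group labels (two-sided, 12870 assignments) and adjustment over the 36. The difference passed for 24 pairs and missed for 12. The ratios of Cyp51, Msmo1 and Nsdhl to the same 6 genes were each higher in the Cyp7a1-labelled livers, the 6 being Lss, Tm7sf2, Hsd17b7, Ebp, Sc5d and Dhcr7. No difference was detected among these 3, with changes of the log2 ratio of 0.052 for Cyp51 to Nsdhl (adjusted p = 0.578), -0.11 for Cyp51 to Msmo1 (0.45) and 0.16 for Msmo1 to Nsdhl (0.345).

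At the other end, the ratio of Ebp was lower to Cyp51, Tm7sf2, Msmo1, Nsdhl, Hsd17b7 and Dhcr7, and that of Sc5d to Lss, Cyp51, Msmo1, Nsdhl and Dhcr7. Ebp and Sc5d did not separate from each other (adjusted p = 0.339). The widest contrast was Msmo1 to Ebp, whose log2 ratio went from -2.09 ± 0.44 to -0.69 ± 0.56 (SD, n = 8 each; exact permutation p = 0.000466, adjusted p = 0.0028) and lay above the control mean in 8 of 8 Cyp7a1-labelled livers. Lss to Sc5d is the weakest of the 24 (adjusted p = 0.0473), and it missed the threshold in 13 of the 18 alternatives.

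For 4 of the 36 pairs the groups did not overlap. Each had an exact permutation p of 0.000155, the smallest this design can give, and an adjusted p of 0.0014. That p follows from the lack of overlap and is no separate result. The ratio of Msmo1 to Dhcr7 was 0.645 to 0.838 in the controls and 0.924 to 1.33 in the Cyp7a1-labelled livers. Msmo1 to Lss was 1.46 to 1.80 against 2.64 to 3.89, and Msmo1 to Sc5d 0.165 to 0.235 against 0.327 to 0.565. Lss to Cyp51 was 0.602 to 1.01 in controls and 0.326 to 0.57 in the Cyp7a1-labelled livers. Cyp7a1 36 lies with its group in these 4 ratios because pairs without overlap were picked, so its place there is no separate result. Its own counts of all 9 genes lay within the control range. No share of pairs without overlap was computed for other genes.

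**Figure D3:**
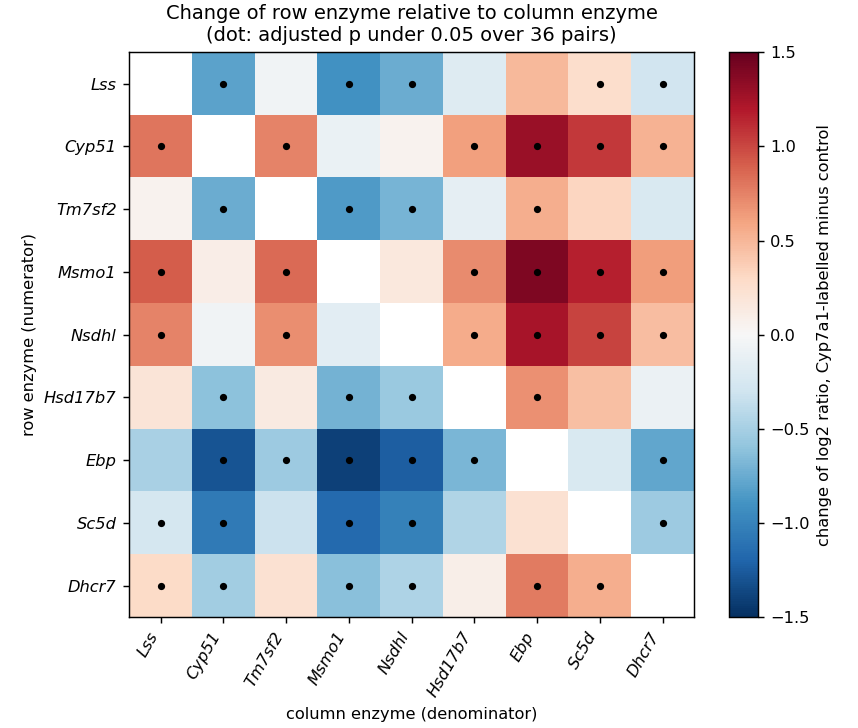
Change of the log2 ratio of the row enzyme to the column enzyme, Cyp7a1-labelled minus control, for the 36 pairs (each shown in both orders with opposite sign). Dots mark an adjusted p under 0.05 in the exact permutation test, and the rows of Cyp51, Msmo1 and Nsdhl are red with dots against the same 6 columns.

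The livers of the Cyp7a1-labelled group were spread widely. Cyp7a1 2 had the highest value of its group for 8 of the 9 genes and a median of 3.29 times the control median over the 9, with 5.80 times for Cyp51. Cyp7a1 28 was above every control for all 9 genes, with a median of 2.40 times. Cyp7a1 36 had the lowest value of its group for 8 of the 9 genes, the exception being Ebp, and a median of 1.06 times the control median. It was the deepest library, with 27.4 M reads. The other Cyp7a1-labelled livers had medians of 1.76 to 2.16 times.

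Among the controls, Control 20 had the highest value for 6 of the 9 genes and Control 16 the lowest for 6. Their medians were 1.28 and 0.759 times the control median. The count of higher genes was 7 without Cyp7a1 36 or without Control 20, Lss being the added one, and 6 without any other single library. It was 7 without Cyp7a1 2 and Cyp7a1 36 together (Lss added), and 7 without Control 20 and Cyp7a1 24 together (Ebp added), both pairs left out after seeing the data. The summed Kupffer cell markers, 6 of 6 in the table, ran from 4438 to 8217 in controls and from 3809 to 18496 in Cyp7a1-labelled livers, with the 18496 in Cyp7a1 24 and the next highest, 7720, in Cyp7a1 36. The markers differed in Cyp7a1 24. There Cd5l (8124.1), Marco (3915.8) and Adgre1 (3537.5) exceeded their highest controls (3729.4, 667.8 and 1046.5), as did Vsig4 and Timd4 by less. Clec4f (1812.5) stayed within its control range, 1466.6 to 2008.8. None of the 6 was at 0 in any of the 16 livers. Cyp7a1 24 also exceeded the highest control in summed markers of lymphocytes (1035.0 against 673.2), neutrophils (224.2 against 101.2) and cholangiocytes (3912.5 against 3691.3). Its sums for recruited macrophages, stellate cells and endothelial cells lay within the control range. The part of other cell types in the values of Cyp7a1 24 was not tested.

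**Figure D4:**
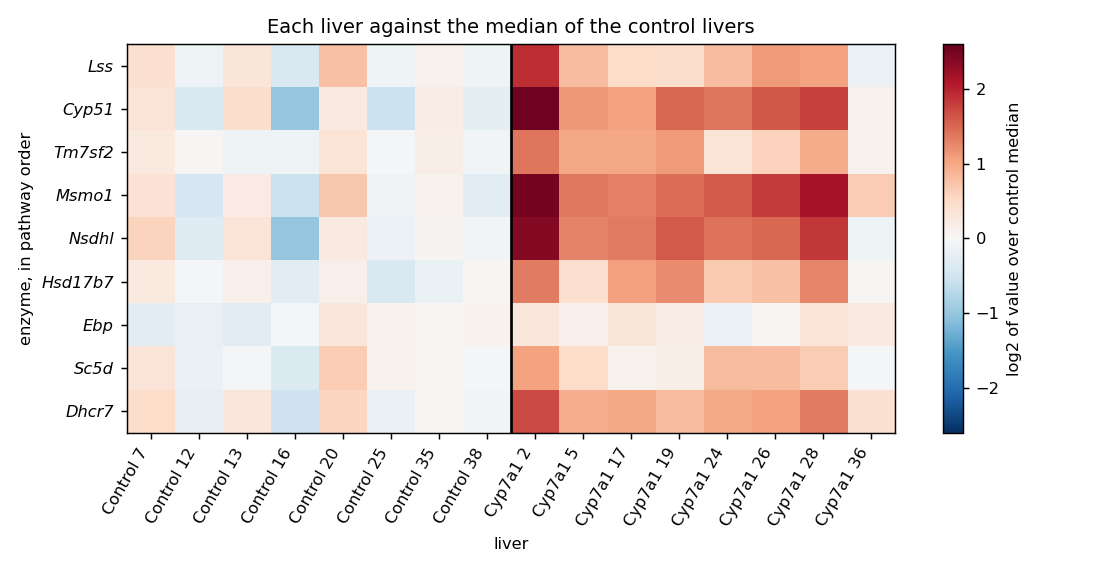
Log2 of each liver's value over the control median for the 9 enzymes (rows, in pathway order) in 16 livers (columns), red above and blue below the control median. Cyp7a1 2 is the darkest column, at up to 5.80 times for Cyp51, Cyp7a1 36 is pale like the controls, and the row of Ebp is pale in every liver.

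With each group centred on its own mean, the 9 genes followed one another over the 16 livers, apart from Ebp. Pearson's r over the 36 pairs had a median of 0.732 and ranged from -0.0651 (Cyp51 and Ebp) to 0.958 (Cyp51 and Nsdhl). The mean r of a member to the other 8 was 0.611 to 0.761 for 8 genes and 0.0867 for Ebp. These values share liver, library and depth, and are given as a description over 16 livers without a test.

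Among the 5 genes outside the 9 with the highest mean r to them were Slc25a1 (0.777), Rdh11 (0.762), Pmvk (0.732) and Mvd (0.73), where the median gene had -0.013. Slc25a1, the mitochondrial citrate carrier, reached 0.957 with Nsdhl while its own level of 4714 ± 319 against 5039 ± 592 normalized counts did not pass the test (SD, n = 8 each; log2 fold change 0.09, limma adjusted p = 0.514). Rdh11, a retinol dehydrogenase, went up from 521 ± 163 to 1261 ± 502 (log2 fold change 1.23, limma adjusted p = 0.0078). Pmvk and Mvd are enzymes of the mevalonate part of the route, and each of the genes named here had its lowest r with Ebp. With Spearman's rho in place of r, 2 of the 5 stayed among the first 5.

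Levels were compared between members only per kilobase of exon. By normalized counts per kilobase, Ebp was the most abundant in controls (1697 ± 248.8), followed by Sc5d (1007 ± 236), and Lss was the least (52.3 ± 14.3). The other 6 lay between 114 and 220, where Dhcr7 (220 ± 56.9) and Tm7sf2 (219 ± 28.7), and Nsdhl (182 ± 54.7), Cyp51 (168 ± 54.2) and Msmo1 (154 ± 47.0), differed by less than their SD. In the Cyp7a1-labelled livers Ebp (1952 ± 213), Sc5d (1378 ± 372) and Lss (89.2 ± 40.4) kept these places, and Nsdhl (522 ± 218), Cyp51 (499.6 ± 240) and Msmo1 (482 ± 188) came next after Sc5d. So the members with the highest level per length in controls, Ebp and Sc5d, were also those with the smallest fold changes. The exon lengths include retained introns. With the longest coding transcript in their place, a length chosen after seeing the data, Ebp stayed highest, Hsd17b7 next to lowest and Lss lowest in both groups, and the order between them changed. In controls Msmo1 (464 per kilobase) then stood well above Nsdhl (239.9) and Cyp51 (189), and Tm7sf2 (644) above Dhcr7 (455). In the Cyp7a1-labelled livers the order after Ebp was Msmo1 (1450.4), Sc5d (1401), Tm7sf2 (1121), Dhcr7 (902), Nsdhl (687) and Cyp51 (561). The places of the members between Ebp and Hsd17b7 thus depend on the length used.

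The neighbouring genes of the pathway were taken from lists. In the part from acetyl-CoA to squalene epoxide, 9 of 9 genes listed were higher and 0 lower (0 lower also at an unadjusted p under 0.05), with a median log2 fold change of 0.996. On the log2 scale Fdps, which builds farnesyl diphosphate, rose by 1.87 ± 0.31 (limma adjusted p = 0.00212), Sqle, the squalene epoxidase, by 3.37 ± 0.63 (0.00492) and Pmvk, phosphomevalonate kinase, by 0.996 ± 0.20 (0.00752). Sqle makes the substrate of Lss, and ran from 11.1 through a median of 85.4 to 387 in controls and from 147 through 939 to 2277 in the Cyp7a1-labelled livers. With any 1 library left out, 6 to 9 of the 9 passed. Mvd (1.52 ± 0.41, limma adjusted p = 0.0372) lost its call without any of 11 single libraries, Control 12, 16, 25, 35 or 38 and Cyp7a1 2, 17, 19, 24, 26 or 28 (adjusted p up to 0.0752).

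Of 9 genes of SREBP2 control and sterol uptake, 2 were higher and 2 lower, with a median of 0.30. Srebf2 rose by 0.55 ± 0.09 (limma adjusted p = 0.00225), and Scap, the escort protein of SREBP, by 0.26 ± 0.07 (0.0311), which is outside the naming rule and was chosen after its values were seen. Insig2, which retains Scap in the endoplasmic reticulum, had a log2 fold change of -0.57 ± 0.14 (0.0259), and Mbtps1, the protease that makes the first cut in SREBP, of -0.16 ± 0.04 (0.0232). Scap lost its call without any of 8 single libraries (Control 13, 16, 25 or 35, or Cyp7a1 2, 5, 26 or 28; adjusted p up to 0.0572). Insig2 lost it without Control 12 (0.0509), and both Insig2 (0.0512) and Mbtps1 (0.0506) without Cyp7a1 28, which left 0 lower.

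Among partners of the later steps, 1 of 5 was higher and 0 lower (0 lower also at an unadjusted p under 0.05), with a median of 0.15. It was Tmem97, a sterol-binding membrane protein of the Ebp family, which had 869 ± 92.9 normalized counts in the controls and rose to 1216 ± 159 (log2 fold change 0.48 ± 0.08, limma adjusted p = 0.00214). A list of 5 possible electron donors to Cyp51, Msmo1 and Sc5d had a median of 0.094. Of these 5, 0 were higher (0 also at an unadjusted p under 0.05) and 1 was lower. It was Cyb5a, cytochrome b5, which went from 21852 ± 2545 to 17470 ± 1595 (log2 fold change -0.32 ± 0.08, limma adjusted p = 0.0229). Its call was lost without Cyp7a1 2 and Cyp7a1 36 (adjusted p = 0.0514) and without Control 20 and Cyp7a1 24 (0.0556). Of 5 genes that oxidise or esterify finished sterols, 0 were higher and 0 lower by limma (also 0 and 0 at an unadjusted p under 0.05), with a median of 0.033, and the smallest p was that of Cyp27a1 (log2 fold change 0.17 ± 0.11, limma adjusted p = 0.419).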

How the data were processed

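The authors deposited normalized counts per gene and library, a signal scaled by library, for 12618 genes in 16 liver libraries (mRNA, KAPA kit, per the labels' protocols). The tools were STAR 2.7.11a, Trim Galore 0.6.10, DESeq2, featureCounts and R 3.6.3, with build mm10, per the submitters' processing notes. Their roles, the annotation, the strand setting and the gene filter are not stated there, so reads of overlapping genes may go to either gene. Values were whole multiples of the value of 1 read (tolerance 0.05 reads), which gave 13.8 to 27.4 M reads per library.

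The test was limma 3.58.1 (eBayes with trend, R 4.3.3) on log2(value + 1), two-sided, Benjamini-Hochberg over 12617 genes, threshold 0.05, no covariate. This scale understates changes of low genes. One gene with text in a cell was left out, and the minimum mean of 10 removed no gene. Ratios between members were tested with exact permutation tests (Python 3.11.15). Positions and lengths are those of GENCODE M21 on mm10, promoters those of RefSeq. The steps were tested on simulated data.

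Members and lists were chosen with earlier results of these data known. Named genes are the 9 members, Srebf2, Sqle and Cyp7a1, up to 3 genes per list with the smallest p past the threshold (1 where none passed) and the 5 genes most like the members. Other genes given as partners in a step were chosen after their values were seen. Some genes of these lists are not reported here. Alternatives were another pseudocount, filters, normalizations, array weights and leaving out libraries.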

Additional observations from a re-analysis of the deposited data

Results flagged for a closer look

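Of 86 groups of 8 livers looked at, 5 held a liver standing apart from the remaining 7 (Dixon's 95% criterion, log2 scale), where chance gives about 1 in 20 groups, or 4.3. The 5 were all in Cyp7a1 36, and the genes vary together. Among the 9 enzymes it was Nsdhl, at 470 normalized counts against 1258 to 2685 in the other Cyp7a1-labelled livers. The others were Mvk (122 against 243 to 438), Fdps (223 against 650 to 1261), Sqle (147 against 654 to 2277) and Cyp46a1 (90.2 against 171 to 303). The cell type markers were not among the 86 groups, so livers standing apart in those were not counted. Adgre1, for example, was 3537.5 in Cyp7a1 24 against 297.7 to 690.7 in the other Cyp7a1-labelled livers. In Control 13 it was 1046.5 against 359.1 to 581.8 in the other controls.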

How the results depend on the processing

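Each of the 9 enzymes kept its direction in all 24 alternatives, and the 6 called genes kept their calls. In 6 of the 216 values a gene that had missed the threshold passed it: Lss in 4, and Ebp and Sc5d in 1 each. Of the 24 pairs of enzymes past the threshold, 23 passed in every alternative run, and 23 to 26 pairs passed with any 1 library left out. Over all genes, 230 to 399 were higher and 245 to 414 lower with 1 library left out (230 and 245 without Cyp7a1 28, and 256 lower without Control 16), and 243 and 227 without Cyp7a1 2 and Cyp7a1 36. In the list of SREBP2 control and uptake, 1 to 3 were higher and 0 to 2 lower with 1 library left out. Without Cyp7a1 2 and Cyp7a1 36 it held 1 higher and 1 lower, and 1 was lower with equal totals or without Control 20 and Cyp7a1 24. Both of these pairs left 0 electron donor genes lower. Of the partners of the later steps 1 to 2 were higher with 1 library left out, and 2, Erg28 added, without Cyp7a1 36, without Cyp7a1 2 and Cyp7a1 36, or with array weights. The settings that left out libraries fitted fewer of them, while equal totals and array weights used all 16, and the cause was not tested. With Spearman's rho, 2 of the 5 genes most like the members were shared. Near 0, the sign of the log2 fold change turned for Pgrmc1 and Soat1, neither of them past the threshold. With 1 library left out, Pgrmc1 ran from -0.00385 (without Control 38) to 0.0611. Soat1 ran from -0.0825 (without Cyp7a1 24) to 0.0999, with -0.00672 without Control 16 and -0.00681 without Cyp7a1 36, and was -0.0802 without Control 20 and Cyp7a1 24. Count tests on recovered reads were planned and not run. In 10 of 16 libraries the smallest value is more than 1 read and the value of 1 read had to be fitted, which alone does not prevent such a test. No paired analysis was possible because the groups share no replicate numbers. Depth did not limit the 9 enzymes, whose values rest on at least 285 reads.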
